A study of Mus musculus with 6 samples.

Results

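The 10 genes described here are NRF2 antioxidant response genes, a list fixed by name: Nfe2l2, Nqo1, Hmox1, Gclc, Gclm, Srxn1, Txnrd1, Slc7a11, Prdx1 and Sqstm1. All 10 were matched by symbol to a gene identifier in the count files, which hold 50686 identifiers, and all 10 passed the filter on low counts that left 16729 genes for testing. The cells were induced pluripotent stem cells (iPSCs) made from mouse gingival fibroblasts, grown as embryoid bodies with retinoic acid and then attached to gelatin-coated plates. In 3 samples intermittent compressive force (ICF) of 1.5 g per square centimetre at 0.23 Hz was applied for 24 h in serum-free medium, and 3 samples without load served as the control. Mouse strain, age and sex are not given in the sources used here, the methods describe the iPSCs only by their tissue of origin and as grown on SNL feeder cells that were removed before aggregation, and the titles number the samples by donor from 1 to 3 in each group. That number is called the replicate here, and since the methods name 3 independent experiments and no donors, p-values may measure only the spread between cultures.

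NRF2, encoded by Nfe2l2, is a transcription factor that cells hold at a low level by binding it to KEAP1, an adaptor that hands it to a CUL3 ubiquitin ligase for breakdown. When oxidants or electrophiles modify KEAP1, NRF2 builds up, pairs with a small MAF protein and binds antioxidant response elements near genes for glutathione synthesis, thioredoxin recycling, quinone reduction and heme breakdown. Because this control acts mainly on the protein, the mRNA of the target genes is the usual readout, and in pluripotent cells the same enzymes keep reactive oxygen species low during self-renewal.

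Reads assigned to genes numbered from 28711166 to 34194413 per sample. ICF replicate 3 stood apart from the other samples before any comparison was made: of its non-zero counts 89.0% could be divided by 4 without remainder, where the other 5 samples had 20.3% to 21.5%, and it lay at 62.8 on the first principal component, where the others lay between -30.2 and 4.31. The counts of 9 of the 10 genes were multiples of 4 in this sample, and of 1 or 2 of them in each of the others. Genes with a count numbered 20802 in this sample and 24340 to 24889 in the others. Its counts therefore resolve differences less finely, small ones above all, and its total may overstate the independent reads behind it. The origin of these multiples was not tested, and results are also given without replicate 3. Pluripotent cell markers were present throughout, with Pou5f1 between 741 and 883 counts-per-million (CPM, scaled to a common library size by TMM normalization) and Nanog between 305 and 382 CPM. In the paper, retinoic acid served to steer the cells toward an immature mesenchymal state. These levels do not show how far the cells had differentiated.

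None of the 10 NRF2 genes passed the threshold in either direction (edgeR's quasi-likelihood test, Benjamini-Hochberg adjusted p under 0.05, n = 3 per group). Over all genes tested, 7.85% were called, 3.47% higher and 4.38% lower with ICF, so 0 of 10 lies near the background share. In bulk RNA fewer cells of a type and less RNA per cell cannot be told apart. At an unadjusted p under 0.05 there were 2 of the 10, Nfe2l2 and Nqo1, against 25.6% of all genes, and DESeq2 called 0 of the 10 where it called 12.3% of all genes, 5.64% higher and 6.63% lower. The log2 fold changes (log2FC, ICF against control) ran from -0.13 for Hmox1 to 0.40 for Nqo1, with a median of 0.12, beside a median of 0.003 over all genes tested. The sign was positive in 7 and negative in 3. When the replicate number was entered as a block, which assumes that equal numbers pair samples, 4 genes were called higher and 0 lower. They were Nqo1, Gclm, Nfe2l2 and Srxn1. With that block, 29.9% of all genes were called, 14.6% higher and 15.3% lower. DESeq2 with the block called 3 of the 10 higher (Nfe2l2, Nqo1 and Gclm), beside 18.6% of all genes, 8.71% higher and 9.93% lower. When every gene with at least 1 count was kept, 1 of the 10 was called higher (Nqo1), beside 6.25% of all genes, 2.83% higher and 3.43% lower. Every ICF sample lay above every control sample in 1 of the 10 genes, Nfe2l2, while the groups were apart in 31.4% of all genes, with ICF above in 15.6% and below in 15.7%.

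**Figure D1:**
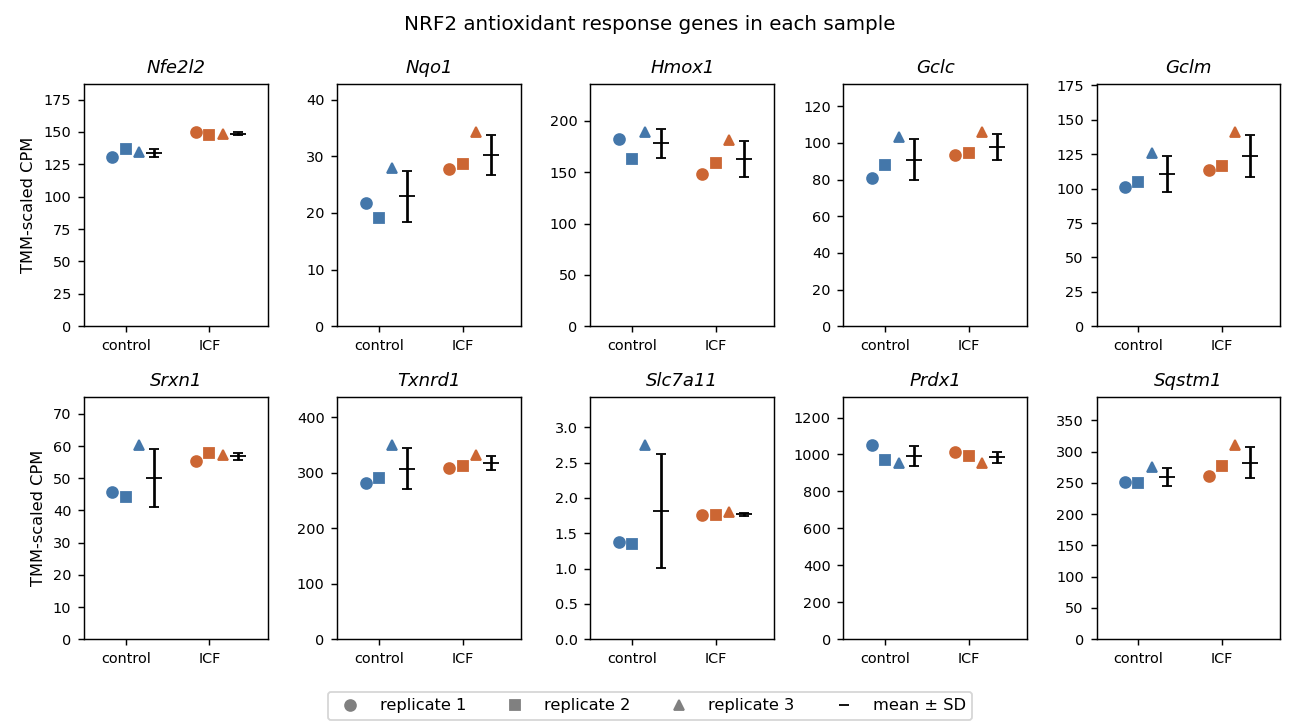
Each panel shows 1 gene, with TMM-scaled CPM from 0 on the y axis and the control and ICF samples on the x axis. Circles, squares and triangles are replicates 1, 2 and 3, and the black bars are the mean ± SD over 3 samples. The groups are apart for Nfe2l2, at 130.5 to 137 CPM against 148 to 149.8 CPM, and the triangle of replicate 3 is the highest control point for 8 of the 10 genes.

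Levels were compared between genes per length, as CPM per kilobase of annotated exon. Prdx1 was the most abundant mRNA, at a mean of 325 CPM per kilobase over the 6 samples (range 313 to 346). Hmox1 followed at 97.4 and Sqstm1 at 80.6, and the ranges of these 2 over the samples overlapped. Txnrd1 at 44.2, Nfe2l2 at 37.2 and Gclc at 25.1 CPM per kilobase came next, each apart from its neighbours in the order, though the lowest Gclc sample, at 21.6, lay under the highest samples of Gclm (22.4) and Nqo1 (22.1). Srxn1 at 18.9, Gclm at 18.6 and Nqo1 at 17.1 CPM per kilobase could not be ordered, since their ranges overlapped. Slc7a11 stood far below the rest at 0.129 CPM per kilobase, with 40 to 79 reads counted in a sample. Exon lengths join all annotated transcripts of a gene, 13922 bases for Slc7a11, and exons that these cells do not use would lower the value.

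Nfe2l2 lies on chromosome 2 of GRCm38 from 75675513 to 75704641 on the reverse strand (positions of the other genes are on the same build, on the forward strand unless stated). Its level was 130.5, 137 and 134 CPM in control replicates 1 to 3 and 149.8, 148 and 149 CPM with ICF. The groups did not overlap, and the samples of each group lay close together. Control samples averaged 134 ± 3.24 CPM (SD, n = 3), compared with 149 ± 1.04 CPM (SD, n = 3) under ICF, which gave a log2FC of 0.15 (SE, the standard error, 0.021). The adjusted p was 0.12 in the edgeR test without the block and 0.02 with it, and the exact two-sided permutation test gave 0.1, the smallest p that 3 samples against 3 allow. The difference was 0.20, 0.11 and 0.15 on the log2 scale in the pairs of replicates 1, 2 and 3. Leaving out any single sample kept the log2FC at 0.13 to 0.17, the narrowest such range of the 10 genes.

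Among the proteins that act on NRF2, the mRNA of its repressor Keap1 was 41.1, 40.2 and 40.3 CPM in the control and 48.0, 49.5 and 42.0 CPM with ICF. The groups did not overlap, by a margin that replicate 3 made narrow. The log2FC was 0.20 (SE 0.073), with an adjusted p of 0.15 without and 0.02 with the block in edgeR, of 0.034 without ICF replicate 3 and of 0.089 in DESeq2 with the block. Cul3, the ligase scaffold, had a log2FC of 0.003 (SE 0.069), and Bach1, a repressor that competes with NRF2 for heme-responsive sites, one of -0.10 (SE 0.16). The small MAF proteins are the DNA-binding partners of NRF2. Maff fell, from 19.1, 19.9 and 16.5 CPM in the control to 6.02, 8.60 and 10.2 CPM with ICF. Every ICF sample was below every control sample, and the log2FC was -1.17 (SE 0.24, adjusted p = 0.0069, edgeR), the widest change among the 123 genes tested from the 9 pathway lists. It was also called without replicate 3 of both groups (adjusted p = 2.5e-08, edgeR) and in all 6 tests that left out 1 sample. Mafg and Mafk, its paralogs, had log2FC values of -0.03 (SE 0.074) and 0.16 (SE 0.13), with overlapping groups. In the control and with ICF, Mafg averaged 139.7 and 136.7 CPM and Mafk 17.61 and 19.75 CPM, beside 18.5 and 8.28 CPM for Maff.

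Nqo1 encodes NAD(P)H quinone dehydrogenase 1, which reduces quinones and is the classic reporter of NRF2 activity, and lies on chromosome 8 from 107388225 to 107403206 on the reverse strand. Its level was 21.8, 19.1 and 27.8 CPM in the control and 27.7, 28.6 and 34.2 CPM with ICF. ICF was higher in each same-numbered pair, but control replicate 3 reached the lowest ICF sample, so the groups overlapped. Control samples averaged 22.9 ± 4.48 CPM (SD, n = 3) and ICF samples 30.2 ± 3.53 CPM (SD, n = 3). This log2FC of 0.40 (SE 0.19) was the widest of the 10, and its adjusted p was 0.12 without the block and 6.6e-05 with it in edgeR. Left-out samples moved the log2FC between 0.28 and 0.56, and the gene was called in 1 of these 6 tests, the one without control replicate 3 (adjusted p = 0.026, edgeR). Without that sample 9.70% of all genes were called, 4.25% higher and 5.45% lower.

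Hmox1 encodes heme oxygenase 1, which splits heme into biliverdin, iron and carbon monoxide, and lies on chromosome 8 from 75093621 to 75100589. Its level was 183, 163 and 189 CPM in the control and 148, 159 and 182 CPM with ICF, and the groups overlapped. It is a target of NRF2 like Nqo1, and its log2FC was -0.13 (SE 0.11), with ICF lower in all 3 same-numbered pairs. The adjusted p was 0.41 without and 0.066 with the block in edgeR. Without replicate 3 of both groups it was called lower, with a log2FC of -0.17 (adjusted p = 0.033, edgeR). At that setting 30.1% of all genes were called, 14.6% higher and 15.6% lower. Single samples moved the log2FC from -0.21 without ICF replicate 3 to -0.06 without ICF replicate 1, and no such test called the gene.

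Slc7a11, Gclc and Gclm supply glutathione, the main small thiol of the cell. Slc7a11 is the cystine importer that brings in the limiting amino acid, and lies on chromosome 3 from 49892526 to 50443614 on the reverse strand. Its level was 1.37, 1.34 and 2.75 CPM in the control and 1.76, 1.76 and 1.80 CPM with ICF. Control replicate 3 alone was high, at 79 reads where the other controls had 40 and 42. The log2FC was -0.04 (SE 0.34) with all samples and 0.38 without control replicate 3, and neither passed the threshold (adjusted p = 0.95 and 0.27, edgeR).

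Gclc encodes the catalytic subunit of glutamate-cysteine ligase, the rate-limiting enzyme of glutathione synthesis, and Gclm its modifier subunit. Gclc lies on chromosome 9 from 77754535 to 77794485 and Gclm on chromosome 3 from 122245557 to 122270732. Gclc was at 81.2, 88.1 and 103 CPM in the control and 93.2, 94.6 and 106 CPM with ICF. Gclm was at 101, 105 and 126 CPM in the control and 113, 116 and 141 CPM with ICF. In both genes ICF was above the control of the same number in all 3 pairs, while replicate 3 of the control exceeded replicates 1 and 2 of ICF. For Gclm the pairs gave almost equal differences of 0.16, 0.15 and 0.17 on the log2 scale, an SD of 0.008 that was the lowest of the 10 genes. Its log2FC of 0.16 (SE 0.14) had an adjusted p of 0.40 without the block and 0.016 with it in edgeR. Gclc had a log2FC of 0.11 (SE 0.12, adjusted p = 0.52 without and 0.11 with the block in edgeR). Single samples decided both sizes: the log2FC of Gclm was 0.06 without ICF replicate 3 and 0.26 without control replicate 3, and that of Gclc was 0.03 without control replicate 1 and 0.21 without control replicate 3, none of them called. The ratio of Gclm to Gclc, per length, was 0.747, 0.711 and 0.729 in control samples, against 0.727, 0.736 and 0.797 under ICF, so the groups overlapped here as well. Gclm shares exon bases with Gm6061 on its own strand over 3.88% of its length in GENCODE M21. HTSeq could leave reads from this share out as ambiguous if the annotation used for counting, which is not given, held both genes.

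Txnrd1, Srxn1 and Prdx1 belong to the thioredoxin system. Peroxiredoxin 1 removes hydrogen peroxide with a reactive cysteine, sulfiredoxin 1 (Srxn1) repairs that cysteine after overoxidation, and thioredoxin reductase 1 (Txnrd1), a selenoprotein, keeps thioredoxin reduced. Prdx1, on chromosome 4 from 116685544 to 116700822, was at 1051, 972 and 953 CPM in the control and 1012, 992 and 954 CPM with ICF. Its mean was 992 ± 52.4 CPM (SD, n = 3) and 986 ± 29.9 CPM (SD, n = 3), and the log2FC of -0.009 (SE 0.05) was the smallest of the 10. A share of 5.63% of the 75-base runs in its longest transcript is found in Gm21399 or Gm7204 as well, so reads from these stretches could be left out as not unique. For the other 9 genes this share was 0%.

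Txnrd1, on chromosome 10 from 82833951 to 82897712, was at 281, 292 and 350.2 CPM in the control and 309.7, 312 and 332 CPM with ICF. Control replicate 3 was above all ICF samples, and the log2FC was 0.05 (SE 0.10, adjusted p = 0.76, edgeR). Srxn1, on chromosome 2 from 152105516 to 152111376, was at 45.6, 44.2 and 60.3 CPM in the control and 55.4, 57.8 and 57.2 CPM with ICF. Here too control replicate 3 was the highest of all 6 samples, whereas the ICF samples lay close together. The log2FC of Srxn1 was 0.18 (SE 0.14), with an adjusted p of 0.36 without and 0.028 with the block in edgeR, and DESeq2 with the block gave 0.12. Without control replicate 3 the log2FC was 0.34 (adjusted p = 0.023, edgeR), and without control replicate 2 it was 0.10 (adjusted p = 0.73).

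Sqstm1 encodes p62, an autophagy receptor that also binds KEAP1 and so feeds back on NRF2, and lies on chromosome 11 from 50199366 to 50210827 on the reverse strand. Its level was 251, 249.8 and 275 CPM in the control and 260.5, 277 and 310.4 CPM with ICF. The groups overlapped, and ICF was higher in all 3 same-numbered pairs. The log2FC was 0.13 (SE 0.087), with an adjusted p of 0.35 without and 0.054 with the block in edgeR. It was 0.06 without ICF replicate 3 and 0.19 without ICF replicate 1, and no test without 1 sample called the gene.

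**Figure D2:**
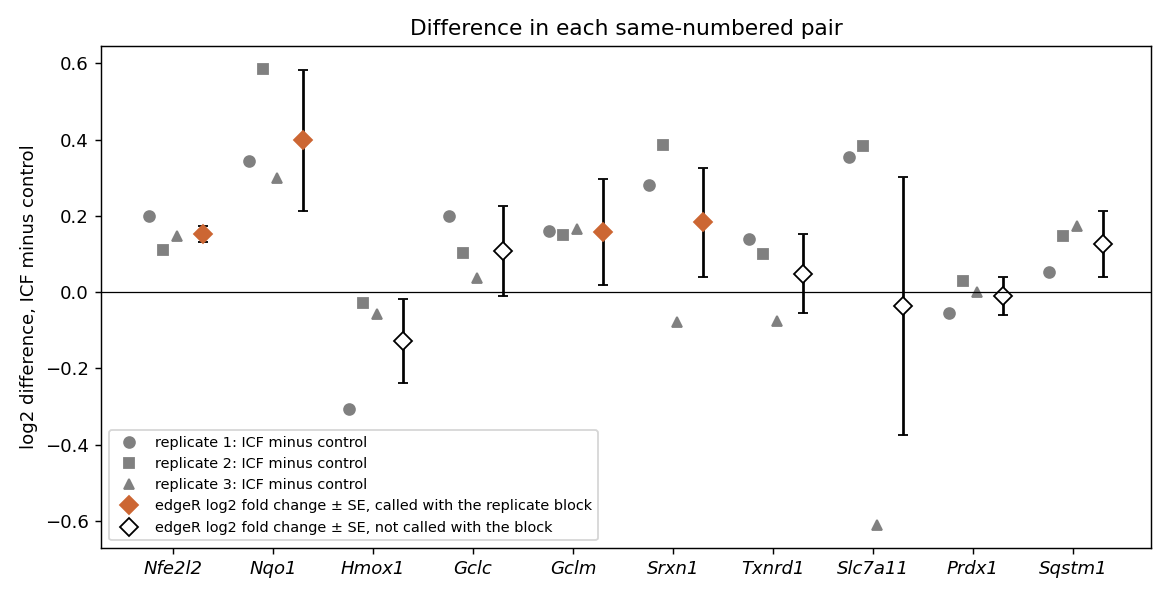
The y axis gives the log2 difference, ICF minus control, and the x axis the 10 genes. Grey symbols are the differences within the 3 same-numbered pairs, and diamonds are edgeR log2FC values with bars for the SE, filled where the gene was called with the replicate block. The 3 pairs of Gclm coincide at 0.15 to 0.17, whereas those of Slc7a11 run from -0.61 to 0.38.

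Replicate 3 stood above the other replicates of its group in most of these genes. It was the highest control sample in 8 of the 10 genes and the highest ICF sample in 7, and it was the highest of both groups in 7. Over all genes tested these shares were 40.5%, 42.0% and 27.5%. Against the mean of replicates 1 and 2, control replicate 3 was shifted by a median of 0.29 on the log2 scale and ICF replicate 3 by 0.14, while the medians over all genes were -0.002 and -0.003. The shift of control replicate 3 was larger than the ICF difference in 9 of the 10 genes, Nfe2l2 being the exception, beside 51.1% of all genes. That of ICF replicate 3 was larger in 6, beside 57% of all genes. Nqo1, for example, was shifted by 0.45 in the control and 0.28 with ICF, beside its ICF difference of 0.40. Nfe2l2 itself was hardly shifted, with 0.007 in the control and 0 with ICF, and Prdx1 went the other way, with -0.09 and -0.07. The replicate 3 samples of both groups also had more reads outside genes (6.24% and 6.04% of all reads, against 4.09% to 4.52% in the other samples) and more unaligned reads (3.18% and 3.32%, against 2.48% to 2.90%). Their share of counts from mitochondrial genes, 2.24% in the control and 2.60% with ICF, was the highest of each group. The part of these differences in the shift was not tested.

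**Figure D3:**
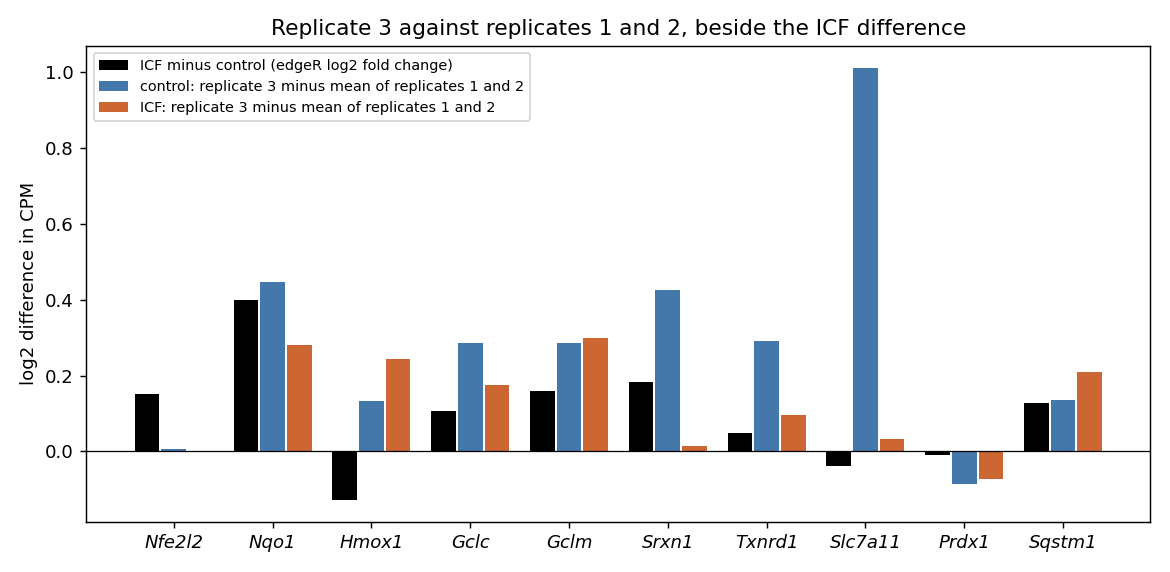
Bars give log2 differences in CPM on the y axis for the 10 genes on the x axis: black, ICF minus control; blue, control replicate 3 minus the mean of control replicates 1 and 2; orange, the same for ICF. The blue bar is longer than the black one in 9 of the 10 genes, and Nfe2l2 has a black bar of 0.15 with almost no shift in replicate 3.

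Without replicate 3 of both groups, 5 of the 10 genes were called higher (Nfe2l2, Nqo1, Gclc, Gclm and Srxn1) and 1 lower (Hmox1), with a median log2FC of 0.15. The groups were apart in 9 of the 10, beside 64.9% of all genes. This left 2 samples per group, and over all genes 30.1% were called at that setting. The widest change was again that of Nqo1, at 0.46 (adjusted p = 0.00011, edgeR), followed by Slc7a11 at 0.37 (adjusted p = 0.18) and Srxn1 at 0.33 (adjusted p = 0.00023, edgeR).

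The letters that NRF2 and its partners recognise were searched in the sequence next to the start of these genes. A window of 300 bases, from 250 bases before to 50 bases after the annotated start, was given for 8 of the 10 genes (RefSeq, GRCm38.p6), the others being Hmox1 and Gclc. The core of the antioxidant response element, TGACNNNGC on either strand, was found in windows of 5 genes (Nfe2l2, Gclm, Srxn1, Txnrd1 in its second window, and Prdx1), whereas 14% of 27025 genes have it in such a window. The AP-1 site TGANTCA, which can overlap that core, was found in Srxn1 and Prdx1 and in 8.97% of all genes. The windows of Nqo1, Slc7a11 and Sqstm1 held neither run of letters. Sequence outside the windows was not searched, so this does not show that these genes lack the element. A match describes letters and does not show binding. The 250 bases before the start are printed 5′ to 3′ for the genes with a match that were called higher with the block, for Prdx1, whose log2FC was the smallest, and for Maff, which fell, with both motifs in capitals. They lie at chr2:75704664-75704913 on the reverse strand for Nfe2l2, and on the forward strand at chr3:122245307-122245556 for Gclm, chr2:152105274-152105523 for Srxn1, chr4:116685349-116685598 for Prdx1 and chr15:79346371-79346620 for Maff.
Nfe2l2: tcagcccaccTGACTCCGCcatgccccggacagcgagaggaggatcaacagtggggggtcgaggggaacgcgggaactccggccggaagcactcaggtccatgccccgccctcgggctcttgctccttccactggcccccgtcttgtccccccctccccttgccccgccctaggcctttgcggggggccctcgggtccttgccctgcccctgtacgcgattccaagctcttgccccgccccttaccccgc
Gclm: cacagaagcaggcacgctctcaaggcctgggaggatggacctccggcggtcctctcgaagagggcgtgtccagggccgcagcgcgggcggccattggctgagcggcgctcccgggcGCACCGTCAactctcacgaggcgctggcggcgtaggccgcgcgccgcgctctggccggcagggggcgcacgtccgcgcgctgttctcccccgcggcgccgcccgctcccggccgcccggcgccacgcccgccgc
Srxn1: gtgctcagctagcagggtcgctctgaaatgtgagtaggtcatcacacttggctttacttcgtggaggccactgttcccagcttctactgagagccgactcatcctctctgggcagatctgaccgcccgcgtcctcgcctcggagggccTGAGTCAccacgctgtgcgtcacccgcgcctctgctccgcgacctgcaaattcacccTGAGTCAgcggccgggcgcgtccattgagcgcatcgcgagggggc
Prdx1: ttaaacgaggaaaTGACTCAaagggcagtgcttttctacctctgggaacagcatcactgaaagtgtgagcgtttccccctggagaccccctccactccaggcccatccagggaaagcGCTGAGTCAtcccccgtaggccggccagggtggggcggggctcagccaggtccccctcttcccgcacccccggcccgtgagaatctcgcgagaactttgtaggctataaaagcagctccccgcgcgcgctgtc
Maff: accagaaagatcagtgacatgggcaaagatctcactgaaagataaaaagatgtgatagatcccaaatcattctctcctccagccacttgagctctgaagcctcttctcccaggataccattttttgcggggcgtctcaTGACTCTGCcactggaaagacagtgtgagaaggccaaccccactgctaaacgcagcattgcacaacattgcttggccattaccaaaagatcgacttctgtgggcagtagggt
Counted from the start, the core begins at -240 in Nfe2l2 and at -112 in Maff on the gene's own strand, and at -134 in Gclm and -133 in Prdx1 on the other strand. In Prdx1 it contains an AP-1 site. The capitals of Srxn1 are AP-1 sites at -102 and -45, and its match to TGACNNNGC lies inside the transcript at 29 and is not printed. Looser forms of the core, such as one with G in place of C after TGA, were not searched. Of the 5 other genes searched, Maff and Me1 held the core, that of Me1 at -6 together with an AP-1 site, and Keap1, Chac1 and Fth1 did not. Genes with the core thus had log2FC values from -1.17 for Maff and -0.79 for Me1, through -0.009 for Prdx1, to 0.18 for Srxn1.

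The other genes of the pathway were followed in 9 lists of 125 genes, of which 123 were tested. In edgeR without the block, 6 of these were called higher and 9 lower, that is 4.88% and 7.32% beside the 3.47% and 4.38% of all genes, and the median log2FC was -0.03. With the block, 20 were called higher (16.3%, background 14.6%) and 28 lower (22.8%, background 15.3%). Without replicate 3 of both groups, 18 were called higher and 32 lower, beside 14.6% and 15.6% of all genes. The calls without the block were spread over 8 of the 9 lists. For each list below, the shares of all genes are the same 3.47% higher and 4.38% lower, and with the block 14.6% and 15.3%.

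**Figure D4:**
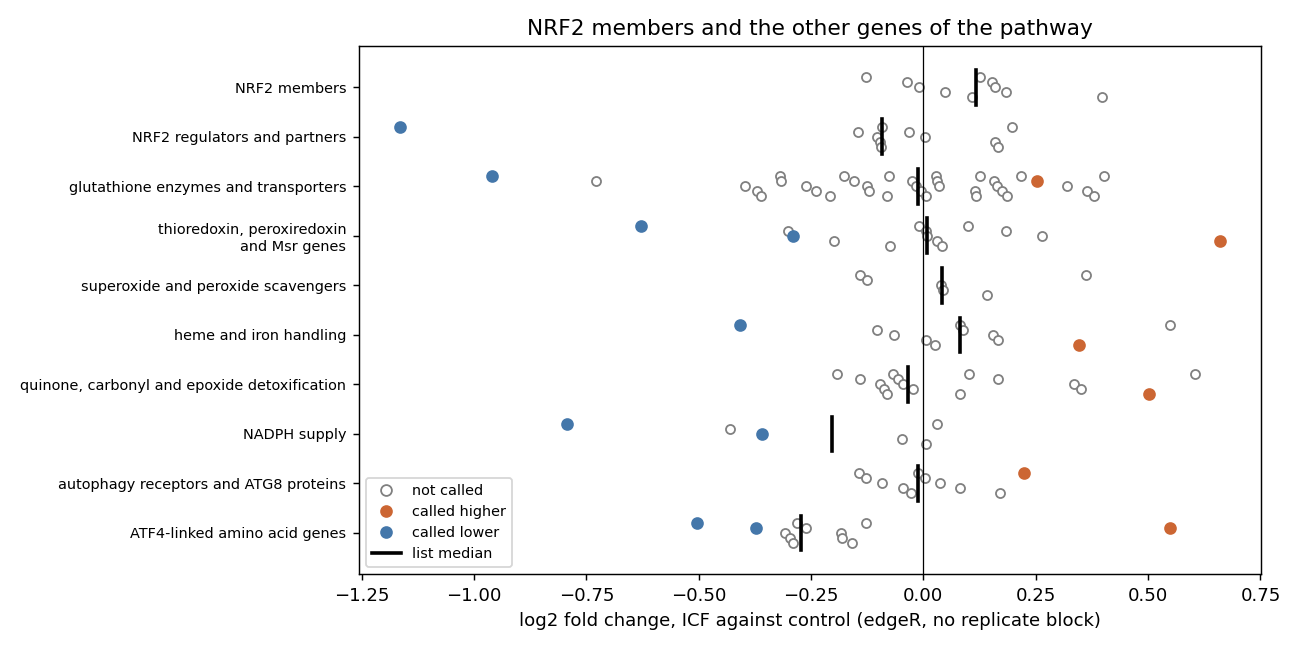
Each row is a list of genes and each circle a gene, placed on the x axis by its edgeR log2FC, ICF against control, without the replicate block. Filled circles were called higher (orange) or lower (blue), black bars are list medians, and Msr stands for methionine sulfoxide reductase. The 10 NRF2 members lie between -0.13 and 0.40 with no filled circle, and Maff and Chac1 lie farthest to the left.

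Of 36 tested genes for glutathione enzymes and transporters, 1 was called higher and 1 lower, with a median log2FC of -0.01. Chac1, a glutathione-degrading enzyme, fell from 56.5, 56.0 and 42.8 CPM in the control to 26.1, 29.7 and 24.0 CPM with ICF. The groups were far apart, with a log2FC of -0.96 (SE 0.16, adjusted p = 0.0032, edgeR), and all 6 tests without 1 sample called it. Glrx3, a glutaredoxin that carries iron-sulfur clusters, rose from 236 ± 3.81 CPM (SD, n = 3) to 282 ± 19.3 CPM (SD, n = 3), with an adjusted p of 0.047 (edgeR) that rose to between 0.054 and 0.19 whichever sample was left out. With the block, 8 genes of this list were called in each direction (22.2% each), beside 14.6% of all genes higher and 15.3% lower.

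Among 14 genes for thioredoxins, peroxiredoxins and methionine sulfoxide reductases, 1 was called higher and 2 lower, with a median of 0.008. These are 7.14% and 14.3%, beside 3.47% and 4.38% of all genes. With the block, 1 was called higher and 4 lower (7.14% and 28.6%), beside 14.6% and 15.3% of all genes. Msrb2, a mitochondrial methionine sulfoxide reductase, rose from 8.76, 8.11 and 8.52 CPM to 12.9, 13.4 and 13.8 CPM, a log2FC of 0.66 (SE 0.042, adjusted p = 0.0055, edgeR). Txnrd3, a paralog of Txnrd1, fell from 12.3 ± 1.04 CPM (SD, n = 3) to 7.97 ± 1.10 CPM (SD, n = 3), with an adjusted p of 0.024 (edgeR) that was 0.084 to 0.12 without control replicate 1, control replicate 2 or ICF replicate 1. Prdx5 fell from 66.8 ± 3.91 CPM (SD, n = 3) to 54.7 ± 3.02 CPM (SD, n = 3), with an adjusted p of 0.045 (edgeR), and was called without control replicate 3 but not when any other sample was left out (adjusted p = 0.068 to 0.20). Of 6 scavengers of superoxide and peroxide, the superoxide dismutases and catalase among them, 0 were called by edgeR without the block (1 at an unadjusted p under 0.05) and 0 by DESeq2. The edgeR fit with the block called 1 in each direction (16.7% each), near the 14.6% higher and 15.3% lower of all genes.

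For heme and iron, 1 of 11 genes was called higher and 1 lower (9.09% each), beside 3.47% and 4.38% of all genes. With the block, 3 were called higher and 1 lower (27.3% and 9.09%), beside 14.6% and 15.3% of all genes. Fth1, the ferritin heavy chain that stores iron and a known NRF2 target, was at 565, 537 and 600.1 CPM in the control and 699.9, 728 and 737 CPM with ICF. It rose by 0.35 on the log2 scale (SE 0.051, adjusted p = 0.013, edgeR) and was not called without control replicate 1 or 2 (adjusted p = 0.066 and 0.089, edgeR). Tfrc, the transferrin receptor that brings iron in, fell from 356 ± 12.4 CPM (SD, n = 3) to 268 ± 31.6 CPM (SD, n = 3), a log2FC of -0.41 (SE 0.10, adjusted p = 0.025, edgeR). It was called without replicate 3 of either group but not without any other sample (adjusted p = 0.066 to 0.12). Hmox1, which releases iron from heme, had the log2FC of -0.13 given above.

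Of 16 genes for quinone, carbonyl and epoxide detoxification, 1 was called, higher, by edgeR without the block, and 3 with it, all higher. These 3 are 18.8% of the list, near the 14.6% of all genes called higher with the block. Akr1b10, an aldo-keto reductase, rose from 12.4 ± 1.48 CPM (SD, n = 3) to 17.6 ± 0.50 CPM (SD, n = 3), a log2FC of 0.50 (SE 0.10, adjusted p = 0.025, edgeR). It too was called without replicate 3 of either group but not without any other sample (adjusted p = 0.08 to 0.12). Reads that fit several aldo-keto reductase copies equally well would be left out by the counting. How much of the Akr1b10 sequence is shared with other copies was not measured.

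The genes that supply NADPH, the reductant on which Nqo1, Txnrd1 and glutathione reductase depend, were called in 2 of 6 cases, both lower, with a median log2FC of -0.20. That is 33.3% of the list, beside 4.38% of all genes called lower. With the block, 3 of the 6 were called lower (50%), beside 15.3% of all genes. Me1, cytosolic malic enzyme, fell from 125, 127 and 129 CPM to 69.7, 75.9 and 74.4 CPM, a log2FC of -0.79 (SE 0.04, adjusted p = 0.00036, edgeR). Idh1, cytosolic isocitrate dehydrogenase, fell from 173 ± 10.4 CPM (SD, n = 3) to 135 ± 1.40 CPM (SD, n = 3), a log2FC of -0.36 (SE 0.05, adjusted p = 0.011, edgeR). Me1 was called in all 6 tests without 1 sample, and Idh1 in those other than without control replicate 2 or ICF replicate 1 (adjusted p = 0.061 and 0.06, edgeR). The members of the pentose phosphate pathway in this list did not pass without the block: Tkt, with a log2FC of -0.43 and non-overlapping groups, had an adjusted p of 0.073 (2.2e-08 with the block, edgeR), while G6pdx, Pgd and Taldo1 lay between -0.05 and 0.03.

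**Figure D5:**
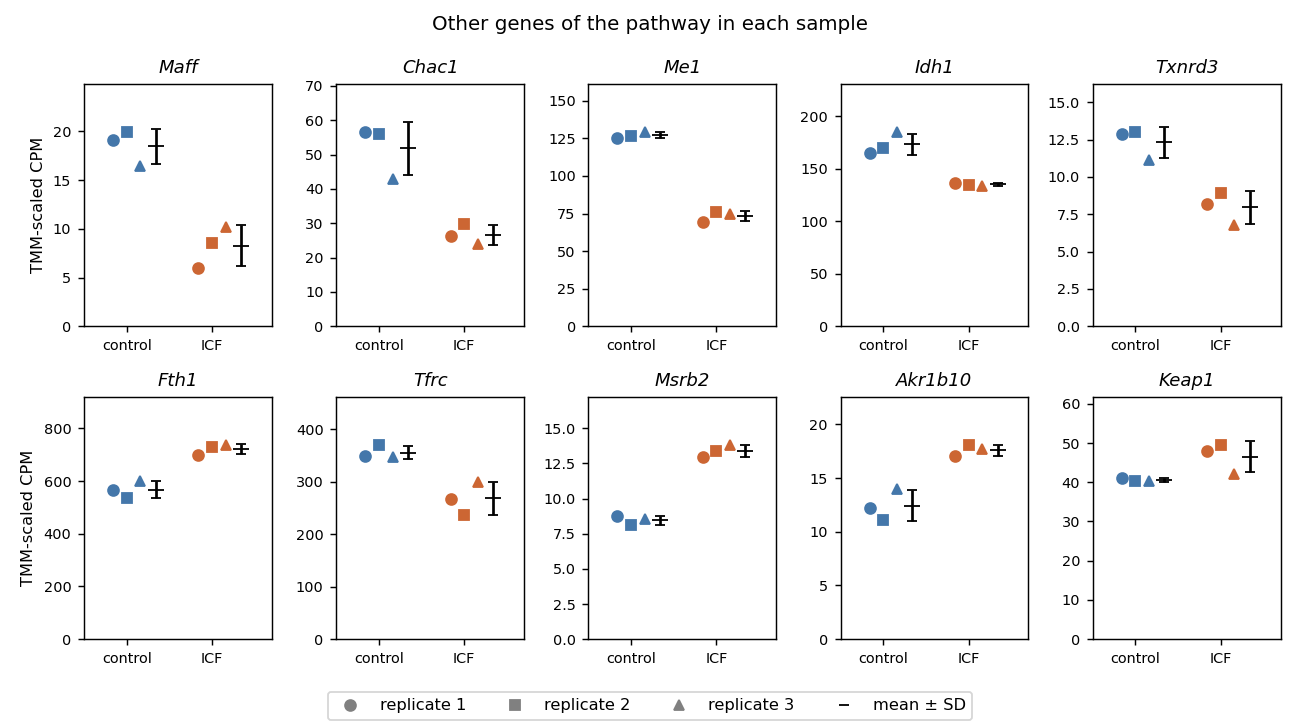
Panels show TMM-scaled CPM from 0 on the y axis in the control and ICF samples of 10 other genes of the pathway, with symbols for replicates 1 to 3 and black bars for the mean ± SD over 3 samples. For Maff, Chac1, Me1, Idh1, Txnrd3 and Tfrc all ICF samples lie under all control samples, and for Fth1, Msrb2, Akr1b10 and Keap1 they lie above them.

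Sqstm1 acts together with other autophagy receptors and with ATG8 proteins, which coat the autophagosome membrane. Of 11 such genes, 1 was called, higher, by edgeR without the block, and 2 with it, both higher. These 2 are 18.2% of the list, near the 14.6% of all genes called higher with the block. Gabarap, an ATG8 protein, rose from 138 ± 4.61 CPM (SD, n = 3) to 161 ± 4.38 CPM (SD, n = 3), with an adjusted p of 0.046 (edgeR) that rose to between 0.051 and 0.18 whichever sample was left out. Slc7a11 and Chac1 are also known targets of ATF4, the transcription factor of the amino acid response, and 12 genes linked to it were counted as a list. Shmt2 and Mthfd2, enzymes of mitochondrial one-carbon metabolism, fell by 0.50 and 0.37 on the log2 scale (adjusted p = 0.0043 and 0.012, edgeR), where Mthfd2 had 0.058 to 0.084 without control replicate 1, control replicate 2 or ICF replicate 1. Sesn2, a stress-induced restraint of mTORC1, rose by 0.55 (SE 0.051, adjusted p = 0.0018, edgeR), and the median of the list was -0.27. Without the block these were the 2 of 12 called lower and the 1 called higher. With it, 10 were called lower and 1 higher, beside 15.3% and 14.6% of all genes, whereas Slc7a11 had a log2FC of 0.02 in that fit (adjusted p = 0.97, edgeR).

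The cell types that the constructs could hold were checked through their markers. Pluripotent cell markers summed to 4660 to 5350 CPM in the control and 4460 to 4780 CPM with ICF. Of 12, 1 was called lower, Tdgf1, with a log2FC of -0.81 (adjusted p = 0.0028, edgeR). Fibroblast and mesenchymal markers, which would also mark leftover feeder cells, summed to 224 to 252 CPM and 254 to 278 CPM. Of 9 tested, 2 were called higher (Col1a1 and Col3a1, log2FC 0.75 and 0.73). The others did not pass. Of these, Col1a2, Postn and S100a4 lay between 0.402 and 0.605, Thy1, Pdgfrb and Pdgfra between 0.033 and 0.066, and Dcn at -0.115. Most of the sum was Pdgfra, at a mean of 178 and 182 CPM. Primitive endoderm markers summed to 2750 to 2800 CPM in the control and 2490 to 2590 CPM with ICF, with 1 of 7 called lower (Sox17) and a median log2FC of 0.033. Most of the difference in this sum lay in Lama1, at a mean of 1760 and 1430 CPM, whereas Gata6, Gata4, Dab2 and Afp had positive log2FC values that did not pass. Neural markers summed to 143 to 164 and 131 to 142 CPM, with 1 of 7 called lower (Elavl3) and a median of 0.028, where Nes, Map2, Dcx and Sox1 had positive values that did not pass. Endothelial markers summed to 75.5 to 91.4 CPM and 77.4 to 110.0 CPM, and blood and macrophage markers to 19.8 to 21.6 CPM and 17.9 to 27.1 CPM. Hbb-bs had no count in any sample, and Ptprc, Lyz2, Adgre1 and Hba-a1 were under the filter. These calls are from edgeR without the block, where 3.47% of all genes were called higher and 4.38% lower. With the block, 1 of 12 pluripotent markers was called higher and 4 lower, and 3 of 9 mesenchymal markers higher. For neural markers these counts were 3 higher and 2 lower of 7, and for primitive endoderm 2 and 2 of 7. Endothelial markers had 1 and 1 of 5, beside 14.6% and 15.3% of all genes. The part of these cell types in the results was not tested.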

How the data were processed

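RNA was sequenced from 3 ICF-treated and 3 control samples as strand-specific single reads of 75 cycles. Reads were trimmed by the authors (Trimmomatic) and aligned (HISAT2), and HTSeq gave the deposited values, which are whole-number counts per gene without normalization. The submitters' processing notes name GRCm38 and also hg38, FastQC, bcl2fastq 2.19 and DESeq2, and the annotation and strand setting are not given in the sources used here. HTSeq leaves out reads that map to several places or to several genes, and its summary lines, which name no gene, held 38.1% to 40.3% of each file's total and were not used.

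Genes were named through GENCODE M21 (GRCm38), which held 50462 of 50686 identifiers. Ddit3 has a pair of identifiers, of which the longer was used. Counts were tested with edgeR 4.0.16 under R 4.3.3 by the quasi-likelihood functions glmQLFit and glmQLFTest, after TMM scaling and filterByExpr by group, over 16729 genes. P-values were adjusted by Benjamini-Hochberg and called under 0.05. SEs come from the SDs of log2 CPM (prior count 0.5). Exact two-sided permutation tests used 20 arrangements. The procedure was tested on simulated data with the same dispersion for all genes and no shift of a replicate. It recovered 60% of planted changes of 0.5 on the log2 scale and 100% of those of 1. The changes of all 10 members were smaller than 0.5, so the absence of a call does not show the absence of a change. Reads shared with other genes were estimated by cutting each member's longest transcript into every run of 75 bases and searching all other transcripts for it.

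The replicate number is the donor number in the sample titles. After group means were subtracted, the correlation across genes was 0.13, 0.17 and 0.32 for the 3 same-numbered pairs, while pairs with unlike numbers gave -0.31 to 0.23 (genes are not independent). These values set replicate 3 of both groups apart, but they did not match replicates 1 and 2 by number. Control replicate 1 correlated at 0.23 with ICF replicate 2 and at 0.13 with ICF replicate 1. Whether equal numbers pair the samples is therefore not known. Blocked counts are given for the members and for most lists and marker sets, and blocked p-values for some single genes. Like the same-numbered pairs, they rest on that assumption. Alternatives were DESeq2 1.42.0, RLE size factors, filters of at least 1 count in any sample or 10 in every sample, the block in both tools, ICF replicate 3 divided by 4, replicate 3 left out, and each sample left out.

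The genes named are the 10 members, Keap1, Cul3, Bach1, Maff, Mafg and Mafk, and from each list up to 3 genes called in each direction with the widest change, provided they averaged 100 counts or more. Tkt, G6pdx, Pgd, Taldo1 and the marker genes were named after their values were seen. The members and lists were chosen with earlier results of these data known.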

Additional observations from a re-analysis of the deposited data

How the results depend on the processing

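Of the 10 NRF2 members, 0 were called in either direction with edgeR and TMM, and 0 with DESeq2, RLE size factors, a filter of 10 counts in every sample or ICF replicate 3 divided by 4. With every gene of at least 1 count kept, 1 was called higher (Nqo1), with the replicate block 4 in edgeR and 3 in DESeq2, and without replicate 3 of both groups 5 higher and 1 lower. With each sample left out, 0 to 2 were called higher and 0 lower. Over all genes, 580 higher and 733 lower became 943 and 1109 with DESeq2, 2445 and 2561 with the edgeR block, 1457 and 1662 with the DESeq2 block, and 2466 and 2627 without replicate 3, and 85 to 724 higher and 215 to 928 lower with each sample left out, the lowest without control replicate 2 and the highest without control replicate 3. Of the pathway list genes, 6 higher and 9 lower became 11 and 16 with DESeq2, 20 and 28 with the edgeR block, 11 and 23 with the DESeq2 block and 18 and 32 without replicate 3, while 16 were lower with every gene of at least 1 count kept, and 2 to 8 were higher and 4 to 15 lower with each sample left out. The groups did not overlap in 1 of the 10 members, in 9 without replicate 3 of both groups (64.9% of all genes), and in 1 to 8 with each sample left out (35.8% to 50.3% of all genes), the most without control replicate 3. The causes of the rise in calls under the block were not tested.

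Signs turned only in genes that were not called. Slc7a11 went from -0.04 to 0.015 with the edgeR block, 0.034 with the DESeq2 block, 0.37 without replicate 3 and between -0.22 and 0.38 with each sample left out. With each sample left out, Txnrd1 ranged from -0.013 to 0.15, Prdx1 from -0.038 to 0.034, Cul3 from -0.046 to 0.052, Bach1 from -0.19 to 0.024 and Mafg from -0.073 to 0.035. Cul3 was at -0.001 with ICF replicate 3 divided by 4 and at -0.023 without replicate 3, where Mafg was at 0.007. The median log2FC of the members stayed between 0.06 and 0.19 with each sample left out. Depth limits Slc7a11, with 40 to 79 reads per sample, more than the other members.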
